A study of Mus musculus with 11 samples.

Results

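The genes described here encode 10 proteins of elastic fibres and microfibrils: Eln, Fbn1, Fbn2, Fbln1, Fbln2, Fbln5, Efemp2, Emilin1, Mfap2 and Mfap5. They were chosen by symbol and are 10 of the 47643 genes in the expression table, whose unit is RPKM, the reads on a gene scaled by its transcript length and by the mapped reads of the library. Elastic fibres give skin its recoil. Their core is cross-linked elastin, made from tropoelastin, and it forms on a scaffold of microfibrils, whose backbone is fibrillin. Microfibril-associated glycoproteins bind the fibrillins, fibulins and EMILIN-1 sit at the boundary of core and scaffold or link tropoelastin to both microfibrils and cells, and lysyl oxidases make the cross-links. In adult skin the network is a product of dermal fibroblasts.

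RNA sequencing was done on fibroblasts sorted from the skin of mice, as live cells with CD140a (PDGFRA, the pan-fibroblast marker) and without CD45, CD11b and F4/80, with CD3 as a further negative marker in the labels. The mice were F1 progeny with a mixed CD-1 and C57Bl/6 background, female, and 9 to 12 weeks old. Act mice carry INHBA, which encodes the activin A subunit, under the keratin 14 promoter, so that the transgene is driven in keratinocytes, and wild-type (WT) littermates served as controls. Cells came from unwounded back skin (normal skin, NS) or from full-thickness excisional wounds 5 days after injury (5dw). WT NS, Act NS and WT 5dw had 3 libraries each, and Act 5dw had 2, since the authors' quality control had removed its replicate 2. Each library was made from RNA of 3 animals pooled across sorting sessions, so the p-values measure the spread between such pools, and more RNA was used for the 5dw libraries than for the NS libraries. Whether a lower value stands for fewer cells of a type or for less RNA per cell cannot be told apart in these bulk samples.

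The mapped totals behind the libraries, recovered from the RPKM steps, were 18649321 to 39702138 reads, and the members drew 741 to 131438 reads per library. These totals were 18649321 to 29718956 in NS, 38740404 to 39702138 in WT 5dw, with 20531292 and 25626301 in Act 5dw. Depth thus differed between WT 5dw and the groups it was compared with, and its part in the results was not tested. All 11 libraries carried the 10 fibroblast markers, at a summed 12100 to 25940 RPKM, most of it collagen. In WT 3 of these markers rose with wounding (Col1a1, Col1a2 and Col3a1) and 6 fell (Pdgfra, Dcn, Lum, Dpt, Thy1 and Fap), and in Act 3 rose and 4 fell. Pdgfra, the gene of the sorted antigen, was at 49.8 to 65.3 RPKM in NS and 29.6 to 37.3 in 5dw. Each of the 10 pan-immune markers measured stayed under 1 RPKM in every library. The 14 keratinocyte markers summed to 1344 to 5129 RPKM in NS and to 181 to 1577 in 5dw. The 10 pericyte and smooth muscle markers summed to 37.0 to 59.5 RPKM in NS and 180 to 344 in 5dw. Acta2 and Tagln made the most of these sums, while the smooth muscle marker Myh11 stayed at or under 0.93 RPKM. In WT 4 of the 9 tested were called as higher, and 2 were called as lower: Cspg4 (log2FC -2.09) and Notch3 (log2FC -1.06). The 9 endothelial markers summed to 22.6 to 40.0 RPKM in NS and 22.1 to 29.1 in 5dw, and in WT Pecam1 rose (log2FC 1.40) while Tek fell (log2FC -1.94). The 6 adipocyte markers summed to 6.35 to 9.13 RPKM in NS and 5.16 to 12.8 in 5dw, and the 6 of skeletal muscle to 4.35 to 7.13 and 2.89 to 3.38. Several of these levels moved with wounding as many of the members did, and their part in the results was not tested. The replicate 1 libraries of WT NS and Act NS stood apart from the other 4 NS libraries on the second principal component, at 22.4 and 35.7 against -18 to -7.42. The calls of the members and the counts of the gene lists by function are given with and without them.

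In NS fibroblasts Fbn1 was the most abundant of the 10 transcripts per length, with a mean of 252 RPKM and a range of 211 to 302 over the 6 NS libraries. Fbln2 (mean 161 RPKM), Eln (141), Mfap2 (127), Fbln1 (114) and Mfap5 (76.2) followed, and each of these overlapped its neighbour in that order over the libraries. Efemp2 (mean 40.8 RPKM) stood apart from its neighbours on both sides, Fbln5 (26.7) and Emilin1 (18.3) overlapped each other, and Fbn2 was lowest, at 4.53 RPKM. In 5dw the order differed. Fbln2 came first with a mean of 373 RPKM over 5 libraries and overlapped Fbn1 at 266, then came Mfap2 (166), Mfap5 (145) and Efemp2 (134), each overlapping the next, then Fbln1 (95.3) and Eln (93.8), which overlapped, then Emilin1 (41.4), and last Fbn2 (19.5) and Fbln5 (14.9), which overlapped. The summed level of the 10 genes was 794 to 1154 RPKM in WT NS, 954 to 973 in Act NS, 1279 to 1431 in WT 5dw, with 1249 and 1419 in Act 5dw. Within this sum the share of Eln was 9.39 to 18.4% in NS and 6.21 to 7.63% in 5dw, while that of Fbln2 was 14.6 to 18.5% in NS and 24.5 to 31.0% in 5dw.

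**Figure D1:**
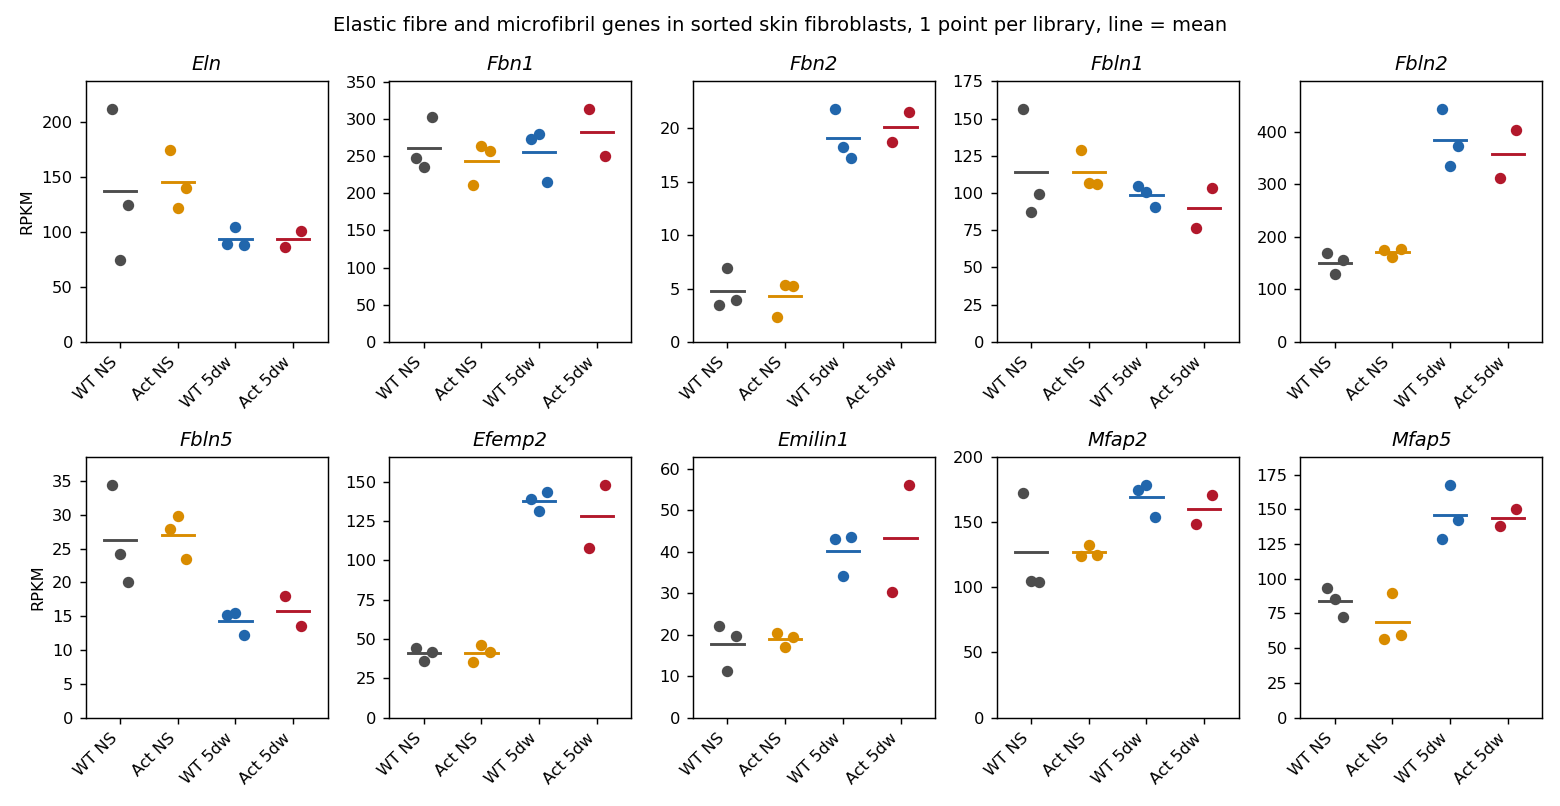
RPKM (vertical axes, from 0, a scale for each gene) of the 10 genes in WT NS, Act NS, WT 5dw and Act 5dw; each point is a library and each line a group mean. Efemp2, Fbln2, Fbn2, Emilin1 and Mfap5 were higher in all 5 wound libraries than in all 6 NS libraries, Fbln5 was lower in all 5, and the 2 genotypes lay over each other in both tissues.

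Wounding was examined by comparing 5dw with NS within each genotype. In WT mice 5 of the 10 genes rose (Fbn2, Efemp2, Fbln2, Emilin1 and Mfap5), 1 fell (Fbln5), and 4 did not pass the test (Eln, Fbn1, Fbln1 and Mfap2), by limma-trend at an adjusted p under 0.05. In Act mice the same 5 genes rose, the same 1 fell, and the same 4 did not pass. In the values as deposited, most genes that changed in these cells were lower in the wound. Of all 11979 genes tested, 58.2% were called in WT, 9.43% as higher and 48.8% as lower. In Act 45.4% were called, 9.01% as higher and 36.4% as lower. The median log2 fold change (log2FC) was 0.63 over the 10 genes and -0.40 over all genes in WT, and 0.69 and -0.31 in Act. Members that did not overlap between the groups numbered 5 above and 1 below in WT, against 11.4% and 55% of all genes. They numbered 6 above and 3 below in Act, with Mfap2 added above and Eln and Fbln1 added below, against 14.4% and 49.8%.

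Since the median of all genes lay below 0, the same fit was also run after median-ratio scaling, which brought that median to -0.0195 in WT and -0.0118 in Act. Of the genes called in WT, 1130 of 6971 were higher as deposited and 2583 of 5315 after this scaling. The numbers in Act were 1079 of 5434 and 2315 of 4878. With quantile normalization they were 2442 of 4768 in WT and 2412 of 4481 in Act. After median-ratio scaling the 5 genes that rose stayed called as higher in both genotypes, with larger values. The fall of Fbln5 was no longer past the threshold, and Fbn1 and Mfap2 were then called as higher in both genotypes. Ratios of 2 genes within a library do not depend on the scaling and are given beside the fold changes.

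**Figure D2:**
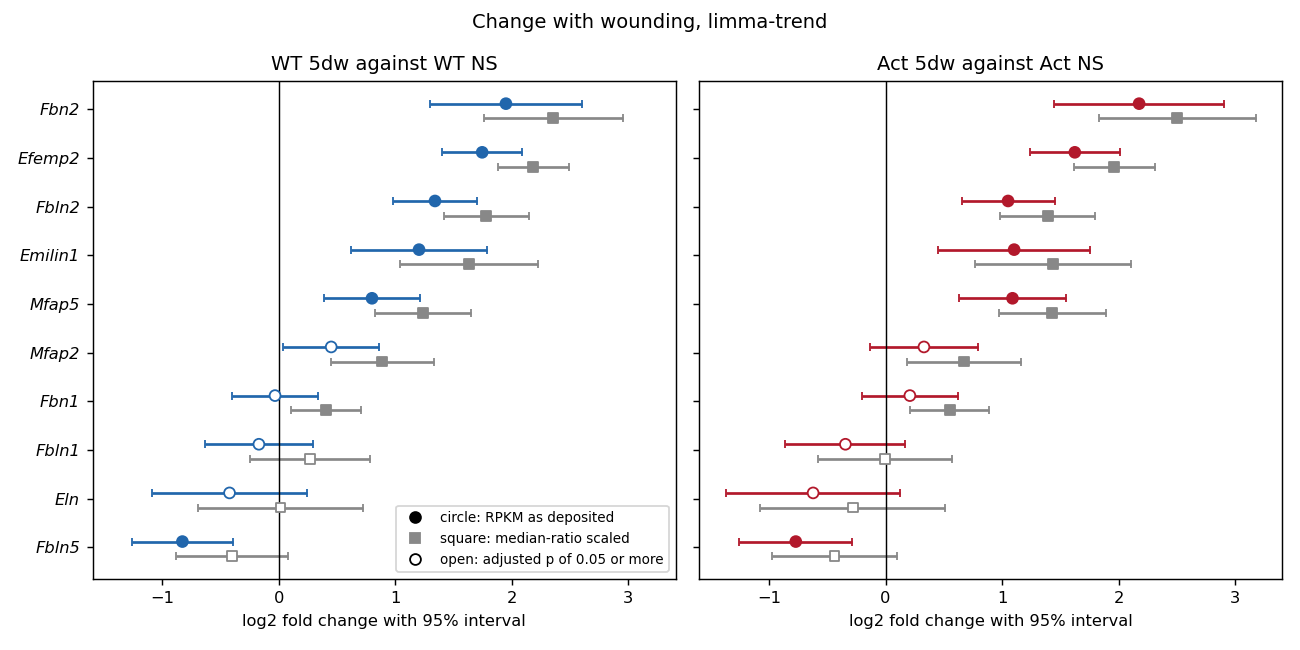
Change of the 10 genes with wounding in WT (left) and Act (right) on the log2(RPKM + 0.5) scale, with 95% intervals; circles are the values as deposited, squares those after median-ratio scaling, and open symbols have an adjusted p of 0.05 or more. Fbn2, Efemp2, Fbln2, Emilin1 and Mfap5 were above 0 in both genotypes under both scalings, and Fbln5 was below 0 but called under the deposited scaling alone.

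Of the 2 fibrillins, the major one was not called and the minor one rose. Fbn1 encodes fibrillin-1, the main fibrillin of adult microfibrils and the gene mutated in Marfan syndrome (chromosome 2, 125300594-125507993, minus strand of GRCm38). It was at 247, 235 and 302 RPKM in WT NS, 211, 263 and 257 in Act NS, 272, 280 and 216 in WT 5dw, with 313 and 250 in Act 5dw. The 4 groups overlapped, and the log2FC with wounding was -0.031 (SE 0.17, adjusted p = 0.884) in WT and 0.21 (SE 0.19, adjusted p = 0.381) in Act. After median-ratio scaling it was 0.41 (adjusted p = 0.0321) and 0.55 (adjusted p = 0.0154), so that the call depended on the scaling. Fbn2 encodes fibrillin-2, the fibrillin best known from developing tissue (chromosome 18, 58008623-58210487, minus strand). Its level was 3.43, 6.96 and 3.89 RPKM in WT NS, 2.34, 5.30 and 5.25 in Act NS, 21.8, 18.3 and 17.3 in WT 5dw, with 18.8 and 21.6 in Act 5dw. Every wound library was above every NS library, with a log2FC of 1.95 (SE 0.30, adjusted p = 0.00039) in WT and 2.18 (SE 0.33, adjusted p = 0.00059) in Act. Fbn2 stayed the smaller of the pair throughout: there were 0.0111 to 0.0296 RPKM of Fbn2 per RPKM of Fbn1 in NS and 0.0599 to 0.0862 in 5dw, without overlap, and the median ratio in 5dw was 4.70 times that in NS.

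The microfibril-associated glycoproteins MAGP-1 and MAGP-2 bind fibrillin and are encoded by Mfap2 and Mfap5. Mfap5 (chromosome 6, 122505845-122529290, plus strand) was at 93.2, 85.2 and 72.5 RPKM in WT NS, 56.9, 89.8 and 59.7 in Act NS, 128, 168 and 142 in WT 5dw, with 138 and 150 in Act 5dw. The tissues did not overlap, and Mfap5 rose by a log2FC of 0.80 (SE 0.19, adjusted p = 0.00401) in WT and 1.09 (SE 0.21, adjusted p = 0.0019) in Act. Mfap2 (chromosome 4, 141010418-141015984, plus strand) was at 172, 105 and 104 RPKM in WT NS, 124, 132 and 125 in Act NS, 175, 179 and 154 in WT 5dw, with 149 and 171 in Act 5dw. Only WT NS replicate 1 reached the wound range. With that library Mfap2 had a log2FC of 0.45 (SE 0.19, adjusted p = 0.0576) in WT, and without it the value was 0.69 (adjusted p = 0.00253), past the threshold. In Act its log2FC was 0.33 (SE 0.21, adjusted p = 0.22). The ratio of Mfap5 to Mfap2 was 0.459 to 0.815 in NS and 0.735 to 0.938 in 5dw, and these ranges overlapped.

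Elastin itself was not called. Eln (chromosome 5, 134702593-134747323, minus strand) was at 212, 74.6 and 125 RPKM in WT NS, 175, 122 and 140 in Act NS, 88.9, 104 and 88.5 in WT 5dw, with 86.3 and 101 in Act 5dw. The WT NS libraries had the widest relative spread in Eln of any member in a group (SD 50.7% of the mean, n = 3), while the WT 5dw libraries differed by an SD of 9.52%. In Act every wound library was below every NS library, and in WT the lowest value of all was an NS library, replicate 2. The log2FC was -0.42 (SE 0.30, adjusted p = 0.251) in WT and -0.62 (SE 0.34, adjusted p = 0.157) in Act. The WT value turned on single libraries: it was -0.80 (adjusted p = 0.016) without WT NS replicate 2 and -0.045 (adjusted p = 0.86) without replicate 1 of both NS groups, and it was 0.016 (adjusted p = 0.972) after median-ratio scaling.

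The highest Eln values in NS, 212 and 175 RPKM, were those of the libraries that stood apart, while the other 4 NS libraries spanned 74.6 to 140. Both NS replicate 1 libraries had the highest Eln, Fbln1 and Emilin1 and the lowest Fbn2 of their genotype's NS libraries. Their ratio of Eln to Fbn1 was 0.859 and 0.830, against 0.317 to 0.546 in the other 4 NS libraries and 0.276 to 0.411 in 5dw. Keratinocyte markers summed to 1344 and 1382 RPKM in these libraries and to 2295 to 5129 in the other 4. The part of this difference in the Eln values was not tested. Without both libraries the 6 calls in WT and the 6 in Act were kept, and Mfap2 was added in WT (log2FC 0.69, adjusted p = 0.00152).

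The fibulins divided. Efemp2 encodes fibulin-4, which brings lysyl oxidase to tropoelastin and without which elastic fibres do not form. Fbln5 encodes fibulin-5, which binds tropoelastin, cell-surface integrins and lysyl oxidase-like proteins. These close relatives were picked for display because they moved in opposite directions in the values as deposited. The 250 bases before their starts are shown, from RefSeq's GRCm38.p6 annotation. CAGAC, the core of the SMAD-binding box, is in capitals in either orientation (GTCTG is the same box on the other strand). The window of Efemp2 is chr19:5473696-5473945 (plus strand) and that of Fbln5 is chr12:101819120-101819369 (minus strand), both read 5′ to 3′ along the gene.
Efemp2: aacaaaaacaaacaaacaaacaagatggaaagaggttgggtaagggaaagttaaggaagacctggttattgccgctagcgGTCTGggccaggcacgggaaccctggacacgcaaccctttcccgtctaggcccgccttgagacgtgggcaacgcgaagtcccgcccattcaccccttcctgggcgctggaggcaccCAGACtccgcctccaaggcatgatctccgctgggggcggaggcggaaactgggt
Fbln5: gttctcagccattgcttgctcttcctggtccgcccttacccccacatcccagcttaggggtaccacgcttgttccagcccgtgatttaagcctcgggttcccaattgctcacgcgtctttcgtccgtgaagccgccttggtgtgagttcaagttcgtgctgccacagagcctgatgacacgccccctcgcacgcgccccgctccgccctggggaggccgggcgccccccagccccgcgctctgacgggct
The box occurred 2 times in the Efemp2 window, at 170 and 54 bases before the start, and was not found in that of Fbln5. A promoter row was found for 7 of the 10 genes. For Efemp2 (3 rows) and for Fbln1, Fbln5 and Mfap2 (2 rows each), 1 row was used. The windows of Fbn1, Fbln2 and Emilin1 lay inside the genes by the coordinates given here, which come from another annotation. CAGAC was found in 4 of the 7 (Efemp2, Emilin1, Fbln1 and Mfap2), against 42.2% of all 32851 promoters of the same length. The AP-1 motif TGANTCA was found in 0 of 7, against 6.75%, and TATAAA in 0 of 7, against 12.4%. Among the other members with a row, Emilin1 (2 boxes) and Fbln2 (0) rose with wounding. Fbln1 (2), Mfap2 (1) and Fbn1 (0) were not called, and a link between boxes and direction was not tested. Both strands were searched, no 2 matches overlapped, and the matches are descriptions of these letters alone.

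Efemp2 (chromosome 19, 5473954-5482517, plus strand) was at 44.4, 36.3 and 41.7 RPKM in WT NS, 35.1, 46.0 and 41.5 in Act NS, 139, 131 and 143 in WT 5dw, with 108 and 148 in Act 5dw. It was the most significant of the 10 in both genotypes, with a log2FC of 1.75 (SE 0.16, adjusted p = 1.08e-05) in WT and 1.63 (SE 0.17, adjusted p = 5.28e-05) in Act. Its end overlaps Mus81 on the opposite strand, which reached at most 3.03 RPKM in any library. Fbln5 (chromosome 12, 101746565-101819055, minus strand) was at 34.5, 24.2 and 20.1 RPKM in WT NS, 27.8, 29.8 and 23.4 in Act NS, 15.1, 15.5 and 12.2 in WT 5dw, with 17.9 and 13.5 in Act 5dw. Every wound library was below every NS library, and Fbln5 fell by 0.83 on the log2 scale (SE 0.20, adjusted p = 0.00454) in WT and by 0.77 (SE 0.22, adjusted p = 0.0151) in Act. After median-ratio scaling the values were -0.40 (adjusted p = 0.161) and -0.44 (adjusted p = 0.175), and without Act 5dw replicate 3 the Act value was -0.57 (adjusted p = 0.145). The ratio of the pair did not depend on the scaling: there were 1.26 to 2.08 RPKM of Efemp2 per RPKM of Fbln5 in NS and 6.01 to 11.7 in 5dw, a change of 6.04 times in the median without overlap.

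Fbln1 and Fbln2 encode fibulin-1, which lies within the elastin core, and fibulin-2, which lies at its border with the microfibrils. Fbln2 (chromosome 6, 91212455-91272540, plus strand) was at 169, 128 and 155 RPKM in WT NS, 174, 161 and 177 in Act NS, 443, 334 and 372 in WT 5dw, with 311 and 404 in Act 5dw. No wound library overlapped an NS library, and Fbln2 rose by a log2FC of 1.34 (SE 0.16, adjusted p = 7.65e-05) in WT and 1.05 (SE 0.18, adjusted p = 0.00103) in Act. Fbln1 (chromosome 15, 85205949-85286535, plus strand) was at 87.3 to 157 RPKM in NS and 76.8 to 104 in 5dw, with a log2FC of -0.17 (SE 0.21, adjusted p = 0.502) in WT and -0.34 (SE 0.23, adjusted p = 0.25) in Act. In WT the direction of Fbln1 was not stable, since it was 0.27 after median-ratio scaling and 0.078 without WT NS replicate 1. The ratio of Fbln2 to Fbln1 was 1.08 to 1.66 in NS and 3.32 to 4.24 in 5dw, without overlap.

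Emilin1 encodes EMILIN-1, a glycoprotein of the elastin and microfibril interface (chromosome 5, 30913402-30921277, plus strand). It was at 22.2, 11.3 and 19.6 RPKM in WT NS, 20.4, 17.1 and 19.4 in Act NS, 43.1, 34.0 and 43.5 in WT 5dw, with 30.2 and 56.2 in Act 5dw. The tissues did not overlap, and the Act 5dw libraries were the farthest apart of any member's wound libraries, with an SD of 42.5% of the mean (n = 2). Emilin1 rose by a log2FC of 1.20 (SE 0.26, adjusted p = 0.00285) in WT and 1.10 (SE 0.30, adjusted p = 0.0109) in Act, and the Act value was 0.66 (adjusted p = 0.143) without replicate 3 of Act 5dw. Per RPKM of Eln there were 0.105 to 0.157 of Emilin1 in NS and 0.327 to 0.556 in 5dw. For Efemp2 the same ratio was 0.201 to 0.486 in NS and 1.25 to 1.62 in 5dw, and for Fbln5 it was 0.159 to 0.325 in NS and 0.134 to 0.208 in 5dw. The ratios of Emilin1 and Efemp2 to Eln did not overlap between the tissues, and that of Fbln5 to Eln did.

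**Figure D3:**
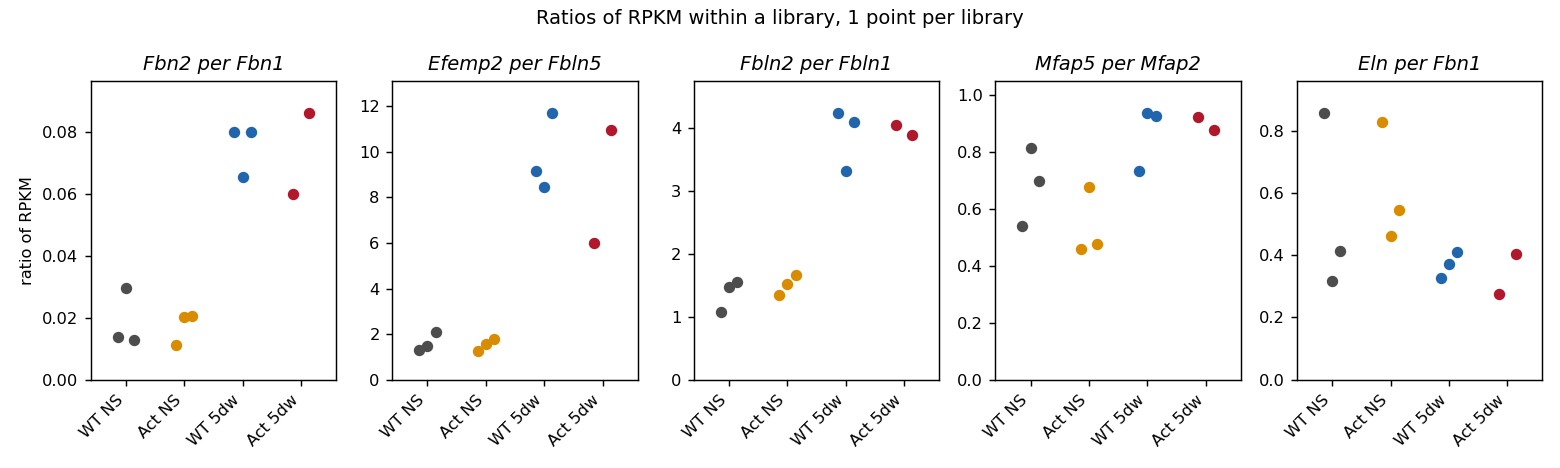
Ratios of RPKM between pairs of genes within a library (vertical axes, from 0), 1 point per library in WT NS, Act NS, WT 5dw and Act 5dw. The ratios of Fbn2 to Fbn1, Efemp2 to Fbln5 and Fbln2 to Fbln1 were higher in all 5 wound libraries than in all 6 NS libraries, those of Mfap5 to Mfap2 and Eln to Fbn1 overlapped, and the highest Eln to Fbn1 values, 0.859 and 0.830, were the NS replicate 1 libraries.

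The genotypes were compared within each tissue, to ask whether activin from the keratinocytes went with other levels of these genes in the fibroblasts. None of the 10 genes was called between Act NS and WT NS, where 0.0167% of all genes were (0.00835% as higher and 0.00835% as lower), and none between Act 5dw and WT 5dw, where 0.0334% were (0.00835% as higher and 0.025% as lower). With limma-trend 0 members had an unadjusted p under 0.05 in either comparison, and with limma-voom on reads recovered from the RPKM values there were also 0. In NS the values ran from Mfap5, with a log2FC of -0.30 (SE 0.19, adjusted p = 0.711), to Eln, with 0.20 (SE 0.30, adjusted p = 0.854). In 5dw they ran from Fbln1, with -0.14 (SE 0.23, adjusted p = 1), to Fbn1, with 0.14 (SE 0.19, adjusted p = 1). The 95% intervals of all 10 genes lay within -0.80 and 0.87 in NS and within -0.75 and 0.81 in 5dw, with the widest for Eln and Fbn2, and the narrowest was that of Efemp2 in both, at -0.35 to 0.34 in NS and -0.51 to 0.26 in 5dw. No member's libraries were without overlap between the genotypes in either tissue, against 0.993% of all genes above and 7.98% below in NS, and 7.87% and 15.2% in 5dw.

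The difference between the genotypes in the response to wounding was tested as the interaction of wounding and genotype. It was called for 0% of all genes and 0 members, and 0 members had an unadjusted p under 0.05 with limma-trend or limma-voom. It ran from -0.29 for Fbln2 (SE 0.24, adjusted p = 0.999) to 0.29 for Mfap5 (SE 0.28, adjusted p = 0.999), and the 95% intervals of the 10 genes lay within -1.20 and 1.21.

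**Figure D4:**
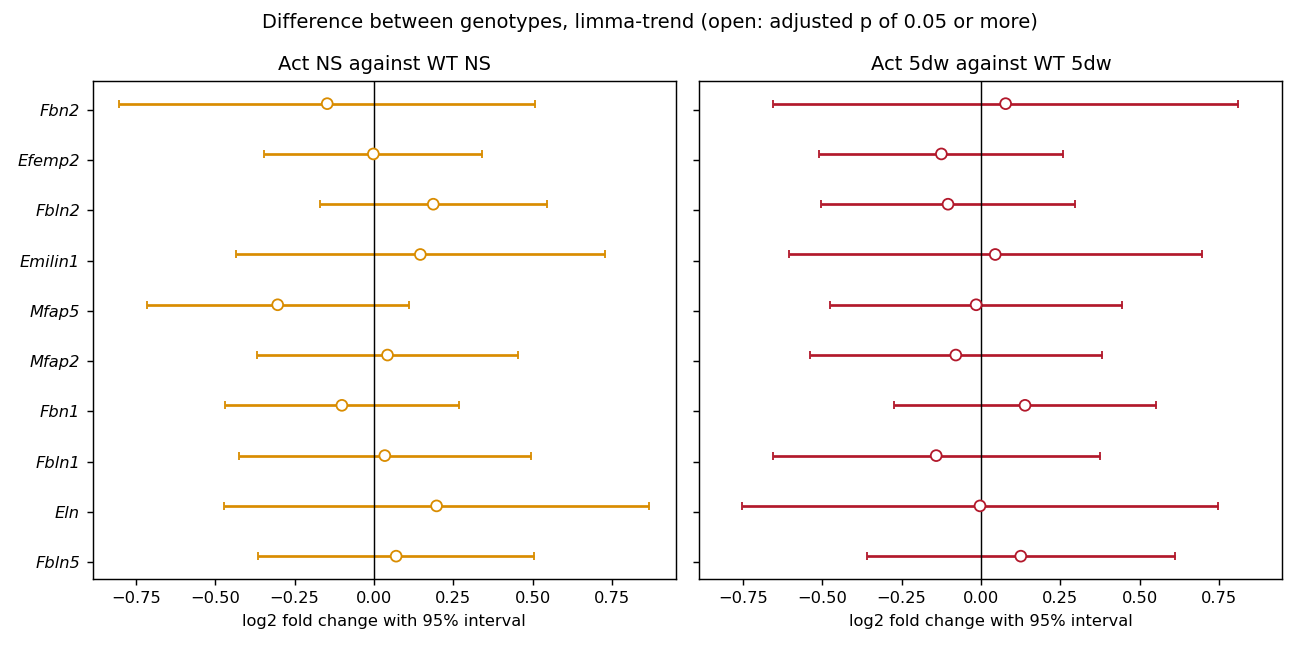
Difference between Act and WT for the 10 genes in NS (left) and 5dw (right) as log2FC on the log2(RPKM + 0.5) scale with 95% intervals; open circles have an adjusted p of 0.05 or more. All 20 intervals include 0.

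The other genes of the elastic fibre system were taken from lists by function and counted in the WT comparison of 5dw with NS, in which 9.43% of all genes were higher, 48.8% lower and the median log2FC was -0.40. Of the 6 genes for cross-linking, 3 rose and 2 fell (median log2FC 0.55). Lox, the lysyl oxidase that fibulin-4 presents to tropoelastin, was the highest of the list by the mean over all 11 libraries and had the largest rise, from 85.7 to 120 RPKM in NS to 423 to 522 in 5dw (log2FC 2.29, SE 0.14, adjusted p = 1.09e-06). In NS its means of 92.6 RPKM in WT and 105 in Act were below those of Loxl1, 181 and 141, and of Loxl2, 121 and 110, which was named after its value was seen. Loxl4, a lysyl oxidase-like enzyme, had the largest fall, from 19.3 to 24.6 RPKM to 3.62 to 4.80 (log2FC -2.31, SE 0.14, adjusted p = 8.43e-07). Loxl1, the relative that fibulin-5 binds, had a log2FC of 0.021 (adjusted p = 0.932), and was named after its value was seen, because of that partner. In Act 3 of the 6 rose and 1 fell.

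Of the 9 further fibulins, hemicentins, EMILINs, multimerins and Mfap4, 6 passed the filter on low values, and 0 rose and 3 fell (median log2FC -0.63). Mfap4, a microfibril-associated protein that binds tropoelastin, was the highest by the mean over all 11 libraries, at 159 to 485 RPKM in NS and 289 to 394 in 5dw (log2FC 0.18, SE 0.34, adjusted p = 0.668). Hmcn2, which encodes hemicentin-2, had the largest fall, from 18.2 to 30.4 RPKM to 0.820 to 1.51 (log2FC -3.91, SE 0.20, adjusted p = 3.18e-07). Efemp1, which encodes fibulin-3, was above it in WT NS, with a mean of 344 RPKM against 304, and fell (log2FC -1.56, SE 0.27, adjusted p = 0.000728); it was named after its value was seen. The 3 of 6 that fell are close to the share of all genes that did. Of the 3 latent TGF-beta binding proteins analysed here, 1 rose and 1 fell (median -0.082). Ltbp2, which encodes a family member that binds fibrillin but not latent TGF-beta, was at 2.63 to 8.17 RPKM in NS and 13.9 to 32.4 in 5dw (log2FC 2.28, SE 0.40, adjusted p = 0.00104), Ltbp1, whose product tethers latent TGF-beta to the matrix, at 23.8 to 29.6 and 4.84 to 12.1 (log2FC -1.83, SE 0.25, adjusted p = 0.000169), and Ltbp3, the highest, had a log2FC of -0.082 (SE 0.20, adjusted p = 0.736).

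Of the 8 fibrillin-binding ADAMTS and ADAMTS-like genes, 2 were called as higher and 6 as lower (median -1.60). Some of them passed the filter on low values only through the tissue where they are high: Adamts17 did not exceed 0.560 RPKM in NS, and Adamtsl2, Adamtsl3 and Thsd4 did not exceed 0.658, 0.480 and 0.477 RPKM in 5dw. With a filter of 5 RPKM, 4 of the 8 were tested, of which 0 rose and 4 fell. Adamtsl4, the highest of them, whose product promotes the assembly of fibrillin-1, went from 22.6 to 47.2 RPKM in NS to 6.92 to 12.1 in 5dw (log2FC -1.74, SE 0.31, adjusted p = 0.000974). Adamtsl3 had the lowest log2FC, -2.69 (SE 0.22, adjusted p = 4.94e-06), and Adamts17 the highest, 1.09 (SE 0.15, adjusted p = 0.000159), both with the limit of that filter. Of 8 proteases that degrade elastin, 5 were tested, of which 3 rose and 0 fell (median 0.47). Of these 3, Ctss and Mmp9 entered the test only through the wound libraries: Ctss was at 0.0991 to 0.581 RPKM in NS, and Mmp9 reached 1 RPKM in 1 of the 6 NS libraries. Mmp2, gelatinase A, was the highest, at 537 to 739 RPKM in NS and 774 to 955 in 5dw (log2FC 0.47, SE 0.15, adjusted p = 0.0211), and Mmp9, gelatinase B, had the highest log2FC, 4.00 (SE 0.62, adjusted p = 0.000585), at 0.105 to 3.48 RPKM in NS and 15.0 to 29.0 in 5dw, again with the limit of that filter. Of 7 integrin subunits whose receptors bind elastic fibre proteins, 2 rose and 2 fell (median -0.065). Itgb1 was the highest (log2FC 0.50, SE 0.13, adjusted p = 0.00839), Itga5 had the largest rise (1.07, SE 0.24, adjusted p = 0.00305) and Itga8 the largest fall (-2.46, SE 0.16, adjusted p = 1.14e-06). Itga8 and the other integrin that fell, Itgb6, did not exceed 0.304 and 0.423 RPKM in 5dw and passed the filter through NS alone. In Act 2 and 6 of the ADAMTS genes rose and fell, 3 and 0 of the proteases and 2 and 2 of the integrins. For the latent TGF-beta binding proteins the numbers were 1 and 1, and for the further fibulins and relatives 0 and 2. Of all genes, 9.01% were called as higher and 36.4% as lower in Act. The Act counts turned on single wound libraries: without Act 5dw replicate 1, 1 protease rose and 1 integrin fell, and without Act 5dw replicate 3, 2 proteases, 1 integrin and 0 latent TGF-beta binding proteins rose and 1 integrin fell. In WT the proteases that rose numbered 2 without WT NS replicate 2 or 3 or WT 5dw replicate 1 or 2, and the integrins that fell numbered 1 without any of these. The relatives that fell in WT numbered 2 without WT 5dw replicate 3. In Act, 3 relatives fell without Act NS replicate 1, 1 integrin fell without Act NS replicate 2 or 3, and 2 proteases rose without Act NS replicate 3. Without replicate 1 of both NS groups, 1 relative rose and 3 integrins fell in WT and 3 relatives fell in Act, while the other counts did not change. After median-ratio scaling, 2583 of the 5315 genes called in WT over all genes were higher. The numbers that then rose and fell in WT were 3 and 1 for cross-linking and 0 and 2 for the further fibulins and relatives. They were 4 and 0 for the proteases and 2 and 1 for the integrins, while those of the other lists did not change. None of these genes was called between the genotypes in either tissue or for the interaction.

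**Figure D5:**
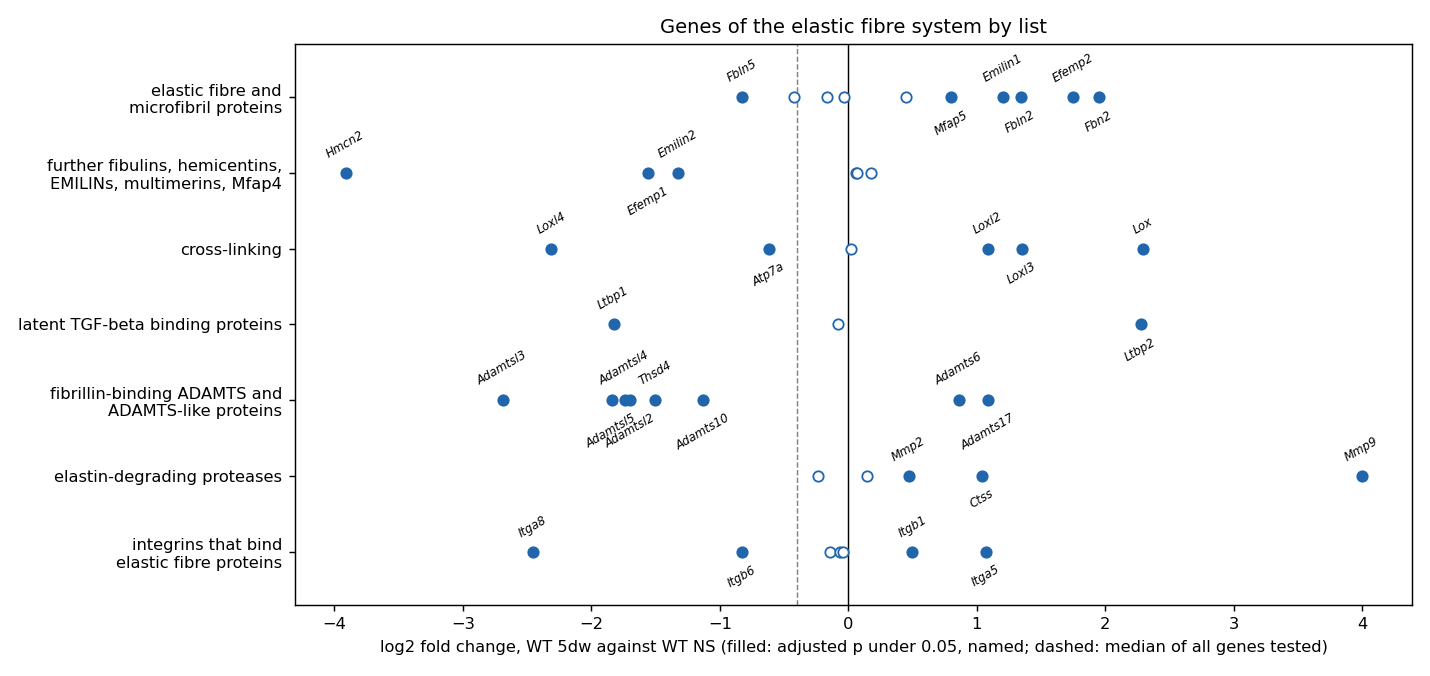
Log2FC of WT 5dw against WT NS (horizontal axis) for the genes tested of each list (rows), 1 point per gene; filled points with names have an adjusted p under 0.05, and the dashed line is the median of all 11979 genes, -0.40. The fibrillin-binding ADAMTS and ADAMTS-like genes had 6 of 8 lower, beside 48.8% of all genes, and 3 of the 6 (Adamtsl2, Adamtsl3 and Thsd4) passed the filter on low values through NS alone; the 10 elastic fibre and microfibril genes had 5 higher and 1 lower.

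The genes whose centred log2 values over the 11 libraries lay nearest to those of Eln were Tctn1, Tpra1 and Chst12, at Euclidean distances of 0.59, 0.60 and 0.61. Nearest to Fbn1 were Zfp507, Polr2k and Ndufaf5, at 0.29, 0.30 and 0.34. No gene of the lists was among them. Among the 10 members themselves the nearest pair was Fbln2 and Emilin1, at a distance of 0.63, followed by Eln and Fbln1 at 0.79, and the farthest was Fbn2 and Fbln5, at 4.96.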

How the data were processed

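The authors aligned single-end reads to GRCm38 and deposited RPKM values per gene for 11 libraries; mapped totals were recovered by finding the depth at which RPKM times length gives whole reads (tolerance 0.03, low genes of up to 200 reads, of which 78.2 to 79.5% came out whole). The strand setting of the counting was not given. The authors' own test takes counts and was not run here. Genes with at least 1 RPKM in at least 2 libraries (11979) were tested as log2(RPKM + 0.5) with limma 3.58.1 (R 4.3.3) by limma-trend with robust moderation, 1 mean per group and Benjamini-Hochberg adjustment in each comparison, so fold changes of low genes are understated. With 3 libraries against 3, an exact permutation test could not pass 0.05.

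The members and the lists were chosen with earlier results of these data known. Named genes are all members; from each other list the highest gene and the largest rise and fall among those called in WT; and the 3 genes nearest to Eln and to Fbn1. Adamtsl2, Thsd4, Ctss and Itgb6 were named after their values were seen, for the limit of the filter, as were Loxl1, Loxl2, Efemp1 and the markers. Of the cell type marker lists, 1 is not reported here. Coordinates are from GENCODE M21 on GRCm38. Alternatives were other pseudocounts, filters and scalings, array weights, no trend, only the groups compared, a replicate block, each library left out and, added after seeing the data, limma-voom on recovered reads. Libraries with the same replicate number deviated together between WT NS and Act NS (correlations 0.334 to 0.554). They did so weakly between WT NS and WT 5dw (0.109 to 0.188) and between Act NS and WT 5dw (0.195 to 0.263). They were taken to pair these groups, while pairs of different numbers over all groups ran from -0.467 to 0.313. Same-numbered pairs gave 0.143 to 0.189 with Act 5dw replicate 3 and -0.124 to 0.0187 with Act 5dw replicate 1. With 2 libraries in Act 5dw, their deviations from the group mean mirror each other, as in 0.313 and -0.313 with WT 5dw replicate 2. These correlations therefore cannot show whether either Act 5dw library pairs, though the block includes both. The labels give no reason for the pairing. Counts rest on the spread between pools, and the part of depth in them was not tested.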

Additional observations from a re-analysis of the deposited data

How the results depend on the processing

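Over 23 alternatives, the number of members called as higher with wounding was 5 to 7 in WT, always with the same 5 among them, and 4 to 7 in Act, the 4 being without Act 5dw replicate 3, where Emilin1 was not called; no member was called between genotypes or for the interaction. The 1 member called as lower, Fbln5, became 0 with median-ratio scaling and with quantile normalization in WT and in Act. Without 1 library at a time the number lower was 1 to 2 in WT and 0 to 2 in Act. It was 2 in WT without WT NS replicate 2, where Eln was called (-0.80), and 2 in Act without WT NS replicate 1, where Eln was called (-0.62). It was 0 in Act without Act 5dw replicate 3. With libraries of the same number as a replicate block, 5 were higher and 1 lower in both, and no member's call changed.

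Some values near 0 changed sign. In WT with wounding, median-ratio scaling gave 0.016 for Eln, 0.41 for Fbn1 and 0.27 for Fbln1, and quantile normalization gave 0.0048 for Fbn1. Without 1 library at a time, Fbn1 ran from -0.10 to 0.088 and Fbln1 from -0.34 to 0.078, and Fbln1 was 0.078 without both NS replicate 1 libraries. Between genotypes in NS, Eln was -0.0037 with array weights and ran from -0.18 (without WT NS replicate 2) to 0.57 (without WT NS replicate 1). Between genotypes in 5dw, Fbn1 ran from -0.023 to 0.30 and Fbln1 from -0.36 to 0.074, the turned values being those without Act 5dw replicate 1. Emilin1 ran furthest there, from -0.40 without Act 5dw replicate 3 to 0.49 without Act 5dw replicate 1. For the interaction Emilin1 ran from -0.54 to 0.34 and Eln from -0.58 to 0.17. The Mfap5 interaction was -6.4e-05 with array weights. The cause was not tested.

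Over all genes the number called ran from 3767 (of fewer genes tested, with a filter of 5 RPKM) to 8007 in WT with wounding and from 3098 to 6672 in Act (3458 without Act 5dw replicate 3), against 6971 and 5434. Between genotypes it ran from 0 to 11 in NS and from 0 to 24 in 5dw, against 2 and 4, and for the interaction from 0 to 6, against 0.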
